A study of Mus musculus with 6 samples.

Results

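Cells that passed a gate for alpha-beta T cells made up 430 of the 12139 cells kept from a sort that was aimed at macrophages. The sort took CD11b hi TOM + cells, given as CD11b+ in the methods of the study, from the inguinal lymph nodes of Cd169Cre/+ Tdtomato fl/fl mice (CD169Tom). In these mice Cre is driven by the gene of CD169 (Siglec1), a macrophage lectin. Cre switches on the red reporter Tomato, and this label stays after Siglec1 expression ends and passes to daughter cells. All 4 mice carried these alleles. The groups were 2 unimmunized mice and 2 mice immunized with HEL-OVA and taken at day 9. Antigen in adjuvant was given, as the methods describe it, to mice that had received OT-II T cells and SWHEL B cells the day before, but it is not stated for the mice of this experiment whether such cells were transferred. The cells of each mouse were stained with 1 hashtag antibody, pooled, and loaded as 2 captures of a CITE-seq experiment, in which antibodies that carry a DNA tag are counted beside the mRNA of a cell. A unique molecular identifier (UMI) marks 1 captured molecule, and the UMI count was the unit throughout.

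Members were chosen by the UMIs of 8 genes. A kept cell was assigned to the alpha-beta T cells if it had at least 2 UMIs of Cd3e, Cd3d and Cd3g together, at least 1 UMI of Trac, no UMI of Tcrg-C1, Cd163l1 or Trdc, and no UMI of Ncr1. The gate used measured values, so the levels of these genes are a description, and nothing is drawn from a test on them. Of 18662 barcodes, 1242 shared their sequence with a barcode of the other capture, a further 1238 had no tag data, 594 of the rest had over 25% of UMIs from mitochondrial genes and 3449 of those then left had no single hashtag, and all of these were left out. The gate held 219 and 42 cells of unimmunized mice 1 and 2 and 103 and 66 cells of immunized mice 1 and 2. Cells of 1 mouse are not replicates, and the mouse was the unit of comparison.

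An alpha-beta T cell recognizes peptides on MHC molecules through a receptor made of an alpha and a beta chain, and the CD3 chains carry the signal into the cell. In lymph nodes most such cells are naive or memory cells that carry either CD4, which binds MHC class II, or CD8, which binds MHC class I. A smaller share are innate-like cells, which leave the thymus already primed for a cytokine such as IL-17 and may carry neither co-receptor. Gamma-delta T cells use another receptor, and many in mouse lymph nodes belong to the IL-17 type.

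The assignment of each cell to a mouse, and so every comparison below, rests on 4 hashtag tags, and the readout of CD169 protein on these cells rests on 1 antibody tag. Their sequences, in lower case with no base singled out, are as follows.
Hashtag 1 (unimmunized mouse 1): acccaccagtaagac
Hashtag 2 (unimmunized mouse 2): ggtcgagagcattca
Hashtag 3 (immunized mouse 1): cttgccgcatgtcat
Hashtag 4 (immunized mouse 2): aaagcattcttcacg
CD169: attgacgacagtcat

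The label alpha-beta T cell was checked against the receptor genes. Trac, which encodes the constant region of the alpha chain and lies at chr14:54220521-54224206 of GRCm38/mm10 on the plus strand, had a median of 3 UMIs per gated cell. The constant beta genes Trbc1 and Trbc2, which the gate did not use, had a median of 11 UMIs together, and 99.3% of gated cells carried at least 1. Trbc2 (chr6:41546730-41548352, plus strand) was found in 98.4% of gated cells and in 13.4% of all other kept cells, but its mean level in the gamma-delta gate defined below, 958 CPM (counts per 1000000 UMIs), was near that of gated cells, 1389 CPM, so it does not part these populations. Cd3e (chr9:44998740-45009627, minus strand) was found in 93.3% of gated cells and Cd3d (chr9:44981786-44987339, plus strand) in 96.7%. The summed level of Trac was 476 and 453 CPM in unimmunized mice 1 and 2 and 999 and 589 CPM in immunized mice 1 and 2. A single cell held 163 UMIs of Trac, which was 19.1% of the 855 Trac UMIs of immunized mouse 1.

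The receptor genes did not part the gated cells cleanly from those of a gamma-delta gate. Genes of the gamma and delta chains that the gate did not use had a UMI in 95 of the 430 gated cells (22.1%). By mouse these cells were 31.5% and 26.2% of the gated cells in unimmunized mice and 8.74% and 9.09% in immunized mice. A gamma-delta gate was set for comparison, with at least 2 UMIs of Tcrg-C1, Cd163l1 and Trdc together, at least 2 Cd3 UMIs and no Ncr1 UMI, and held 576 cells. In it 66.8% of cells had a UMI of the other gamma and delta genes, and 285 of the 576 (49.5%) had a UMI of Trac. Trac UMIs were also found in 258 of 9830 cells (2.62%) outside all of the lymphocyte gates. UMIs of the other gamma and delta genes were not particular to T cell gates. In the natural killer cell gate defined below, which holds no Cd3 UMI, 143 of 547 cells (26.1%) had one. By mouse this was 30.8% and 27.9% in unimmunized and 26.0% and 9.88% in immunized mice. Such a UMI alone therefore does not mark a gamma-delta T cell. The cells are therefore called gated T cells below.

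Just inside the gate, 112 cells had a single Trac UMI, of which 32.1% had a UMI of Cd4, Cd8a or Cd8b1 and 70.5% a UMI of Cxcr6, the receptor of CXCL16. The 318 gated cells with 2 or more Trac UMIs had values of 56.3% and 51.6%. Just outside the gate, 159 cells met it but for a single gamma-delta UMI, and 13.2% of them had a co-receptor UMI and 93.7% a Cxcr6 UMI. A further 111 cells lacked only Trac, with values of 27.9% and 66.7%. On both measures cells just inside the gate lay between those deeper inside it and those with a single gamma-delta UMI, and nearer to the cells that lacked Trac.

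Depth was close to that of the other cells in unimmunized mice and lower in immunized mice. The median UMI count of gated T cells was 5957 and 5351 in unimmunized mice and 6727 and 7014.5 in immunized mice. The medians of all other kept cells were 5866, 6409, 9754 and 12792 in the same order. Summed over the gated cells of a mouse, the libraries held 1465938, 275706, 855804 and 539518 UMIs, so that unimmunized mouse 2 was the shallowest.

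The gated T cells were a smaller share of the sort in both immunized mice. They made up 7.74% (95% interval 6.79 to 8.79) of kept cells in unimmunized mouse 1 and 7.82% (5.69 to 10.4) in unimmunized mouse 2. In immunized mice 1 and 2 they made up 2.54% (2.08 to 3.07) and 1.40% (1.08 to 1.77). These exact binomial intervals cover counting error only, and those of the 2 groups did not overlap. The mean was 7.78% ± 0.0546 (SD, n = 2 mice) against 1.97% ± 0.809 (SD, n = 2 mice), a difference of -5.81 percentage points with p = 0.333 (two-sided exact permutation test), which is the smallest p that 2 mice against 2 can give. After every cell was thinned to 1500 UMIs, which left out 231 cells, 1 of them gated, the shares were 6.18%, 6.13%, 1.82% and 0.786%. In captures 1 and 2 apart they were 7.70% and 7.79%, 9.96% and 5.80%, 2.55% and 2.53%, and 1.58% and 1.19% for the 4 mice in the same order. The difference was -3.51 points with a stricter gate (at least 3 Cd3 and 2 Trac UMIs) and -3.74 points without cells that carry other gamma or delta UMIs. A share depends on every other population of the sort, and the number of T cells in the lymph node was not measured.

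**Figure D1:**
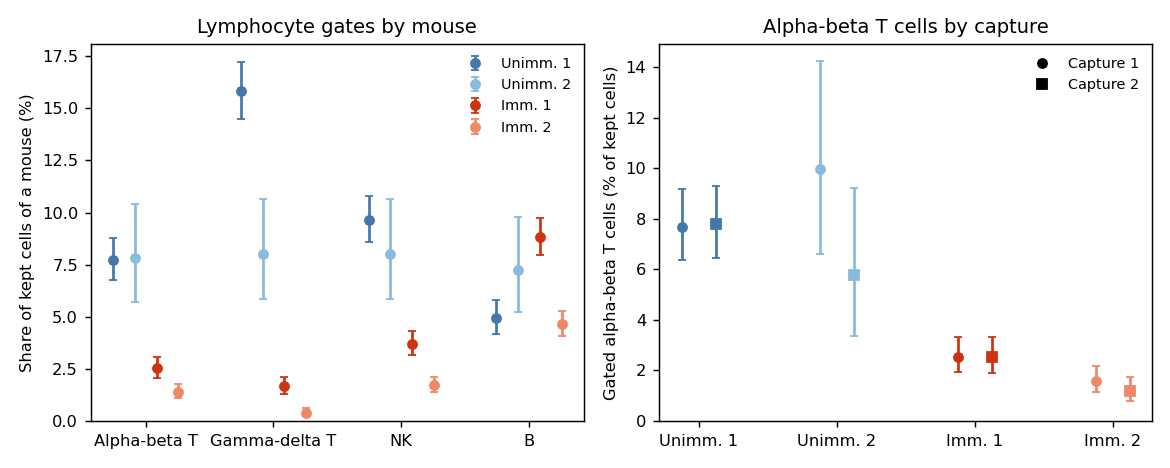
Share of kept cells in each lymphocyte gate by mouse (left, percent) and share of gated T cells by mouse and capture (right, percent). Points are mice or mouse-capture pairs and bars are exact binomial 95% intervals. The 2 immunized mice lie at 2.54% and 1.40% and the 2 unimmunized mice at 7.74% and 7.82% for the alpha-beta gate, and both immunized mice lie below both unimmunized mice in each capture.

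Gamma-delta and B gated cells did not keep a fixed ratio to the gated T cells. The gamma-delta gate held 15.8% and 8.01% of kept cells in unimmunized mice and 1.65% and 0.381% in immunized mice, so that the ratio of gated T cells to gamma-delta gated cells was 0.489 and 0.977 in unimmunized mice and 1.54 and 3.67 in immunized mice. This ratio did not overlap between the groups (difference of means 1.87, p = 0.333, exact permutation test). A natural killer cell gate, with an Ncr1 UMI and no Cd3 UMI, held 9.65%, 8.01%, 3.70% and 1.72%, and the ratio of gated T cells to it was 0.802, 0.977, 0.687 and 0.815, with overlap. A B cell gate, with at least 2 UMIs of Cd79a, Cd79b and Ms4a1 together, held 4.95%, 7.26%, 8.84% and 4.64%, and the ratio to it was 1.56 and 1.08 in unimmunized mice and 0.288 and 0.301 in immunized mice (p = 0.333, exact permutation test). The B gate did not hold B cells alone: 58.6% of its cells, and 83.1% in immunized mouse 2, had a Csf1r UMI and at least 20 Lyz2 UMIs, so this ratio is to cells of the gate and not to B cells. In the natural killer gate such cells were 9.52% and 14.0% in unimmunized mice and 12.0% and 65.4% in immunized mice 1 and 2. The ratio of 0.815 in immunized mouse 2 is therefore also to cells of the gate, most of which carried these macrophage UMIs.

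Co-receptor genes divided the gated T cells unevenly. Cd4 (chr6:124864692-124888221, minus strand) alone had a UMI in 79 cells (18.4%), Cd8a or Cd8b1 (chr6:71322788-71337494, plus strand) alone in 127 cells (29.5%), both in 9 cells (2.09%) and neither in 215 cells (50%). The share with neither was 65.3% and 47.6% in unimmunized mice and 33.0% and 27.3% in immunized mice, without overlap (difference -26.3 percentage points, p = 0.333, exact permutation test). After thinning to 1500 UMIs per cell it was 82.2%, 64.3%, 60.8% and 57.6%, still without overlap and with a difference of -14.1 points. The Cd8-only share was 20.1% and 33.3% in unimmunized mice and 32.0% and 54.5% in immunized mice, and overlapped (difference 16.6 points, p = 0.667, exact permutation test).

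The Cd4-only share was 12.8% (8.67 to 17.9) and 16.7% (6.97 to 31.4) in unimmunized mice and 32.0% (23.2 to 42.0) and 16.7% (8.62 to 27.9) in immunized mice. The difference of 9.63 points rested on immunized mouse 1 (p = 0.667, exact permutation test): it was 1.94 points without that mouse, 17.3 points without immunized mouse 2, and 1.67 points after thinning. A Cd4 UMI alone is a weak mark of a CD4 T cell here, since a Cd4 UMI without a Cd8 UMI was also found in 5.03% of gamma-delta gated, 12.8% of natural killer gated and 8.99% of B gated cells. A Cd8 UMI without a Cd4 UMI was found in 6.77%, 1.83% and 1.46% of the same gates. Median depth was 6450 UMIs in Cd4-only, 6611 in Cd8-only and 5951 in neither cells. In Cd4-only cells it was 5398.5 and 6027 in unimmunized and 8239 and 8286 in immunized mice. Shares of Cd4-only cells by mouse are therefore given at unequal depth.

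**Figure D2:**
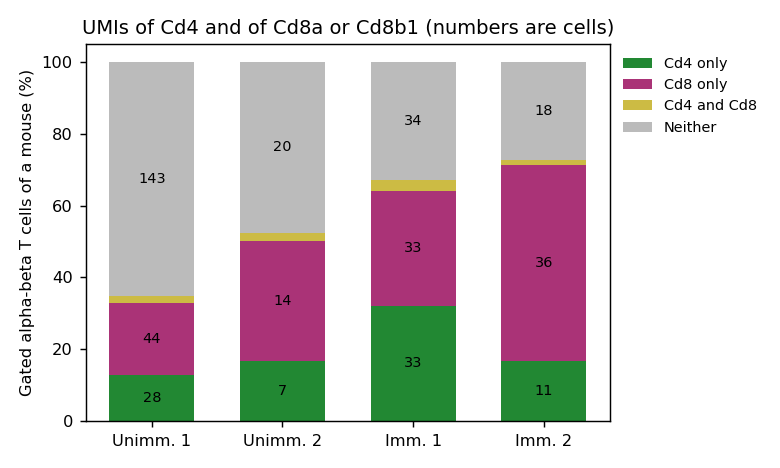
Gated T cells of each mouse split by UMIs of Cd4 and of Cd8a or Cd8b1 (percent of the gated cells of a mouse, numbers are cells). The grey part, cells with no UMI of either co-receptor, takes 65.3% and 47.6% of the bars for unimmunized mice and 33.0% and 27.3% for immunized mice.

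Selected genes are given for the 3 categories as shares of cells with a UMI. These shares are pooled over mice that give unequal numbers of cells to each category. They were not tested, because all genes come from the same cells. Among Cd8-only cells, 51.2% had a UMI of Ccr7, the chemokine receptor of the T zone, and 77.2% of Lef1, a transcription factor of naive T cells. Among Cd4-only cells these shares were 19.0% and 44.3%, and among cells with neither co-receptor 9.77% and 22.3%. Nkg7, a gene of cytotoxic granules, was found in 84.3% of Cd8-only, 16.5% of Cd4-only and 27.0% of neither cells. Cd8-only cells thus most often carried a UMI of Ccr7, Lef1 and Nkg7. Il7r, another gene of the naive list, was found most often in neither cells.

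Several genes of regulatory and helper cells were found most often in Cd4-only cells. Foxp3, the lineage factor of regulatory T cells, had a UMI in 21.5% of Cd4-only cells against 1.57% of Cd8-only and 5.58% of neither cells. By mouse the Cd4-only cells with a Foxp3 UMI were 4 of 28, 1 of 7, 12 of 33 and 0 of 11, so the pooled share rests mostly on immunized mouse 1. Tnfrsf4, which encodes the co-stimulatory receptor OX40, was found in 36.7%, 3.15% and 6.98% in that order. Izumo1r, which encodes folate receptor 4, was found in 39.2%, 9.45% and 10.2%. Ctla4, an inhibitory receptor, was found in 19.0%, 4.72% and 5.12%, and Cd40lg, the ligand by which helper cells act on B cells, in 25.3%, 3.94% and 17.2%. Il2ra, the alpha chain of the IL-2 receptor and also on the regulatory list, went the other way, with 15.2%, 11% and 49.8%.

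Cells with neither co-receptor most often carried UMIs of several genes of innate-like and IL-17 type cells. Cxcr6 (chr9:123806475-123811760, plus strand) was found in 73.5% of them, against 46.5% of Cd8-only and 26.6% of Cd4-only cells. Ccr6 was found in 47.9% of neither cells, Blk, a kinase of IL-17 type gamma-delta T cells, in 41.9%, Il17re, a receptor subunit for IL-17C, in 36.3%, Il23r in 32.6% and Zbtb16, which encodes the innate-like factor PLZF, in 27.0%. In Cd4-only and Cd8-only cells the highest share among these 5 genes was 11.8%, for Ccr6 in Cd8-only cells. UMIs of other gamma and delta genes were found in 36.3% of neither cells, 6.33% of Cd4-only and 9.45% of Cd8-only cells.

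**Figure D3:**
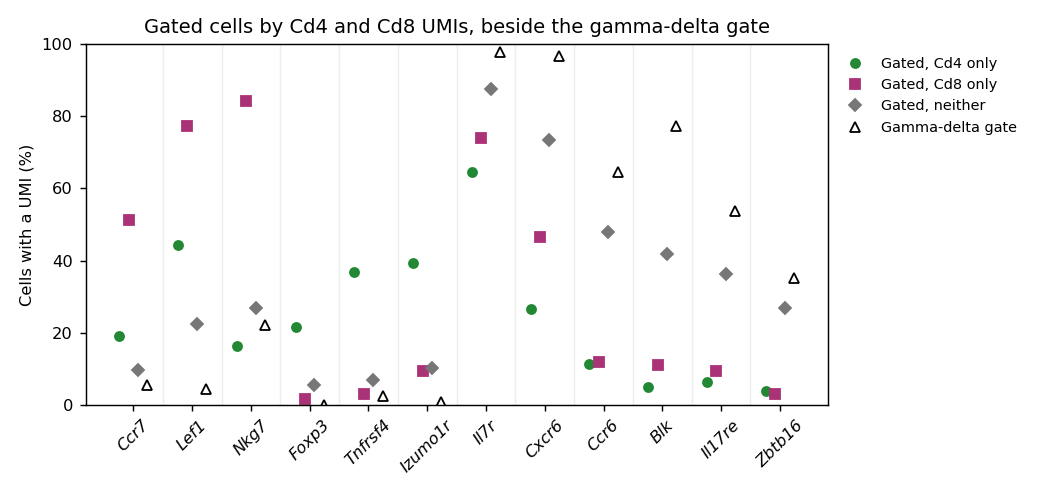
Cells with at least 1 UMI of each gene (percent) among Cd4-only, Cd8-only and neither gated T cells, all mice pooled, with the gamma-delta gate as open triangles. Neither cells lie between the other gated cells and the gamma-delta gate for Cxcr6, Ccr6, Blk, Il17re and Zbtb16, while Cd8-only cells are highest for Ccr7, Lef1 and Nkg7.

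Variable genes of the receptor were caught rarely, as 3' libraries read the constant end of a transcript. A Trav UMI was found in 72 gated cells (16.7%) and spread over 41 of the 128 Trav genes, and a Trbv UMI in 47 cells (10.9%) over 16 of 35 Trbv genes. Among remaining cells, which are the 9830 kept cells outside all 4 lymphocyte gates, the shares were 0.305% and 0.285%, and in the gamma-delta gate 6.94% and 3.82%. The gene seen in most cells was Trbv12-2, with 3, 0, 6 and 2 cells in the 4 mice, followed by Trbv13-1 with 0, 0, 4 and 2. Trbv2 followed with 5 cells in all and Trbv15 and Trbv16 with 4 each. Of the Trav genes, Trav1 and Trav16n were each found in 5 cells, Trav14d-3-dv8 in 4, and no other in more than 3. No V gene was found in more than 11 cells, so the use of V genes was not compared between groups.

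Genes high in gated T cells over all other cells are a description, since the gate chose the cells. Of the 2100 genes outside the gate with at least 50 CPM in the gated cells of all 4 mice, Dapl1 had the largest ratio, with a mean over mice of 166 CPM in gated cells and 0.891 in all other cells. By mouse its level in gated cells was 115 and 185 CPM in unimmunized and 150 and 215 CPM in immunized mice. Lef1 stood at 161 against 4.23 CPM, Cd5, which dampens T cell receptor signalling, at 89.8 against 3.01, and the co-stimulatory receptor genes Cd28 at 133 against 7.84 and Cd27 at 160 against 15.8. Lck, the kinase that starts T cell receptor signalling, stood at 273 against 30.8 CPM. The other genes among the 15 largest ratios were Cd8b1 (196 against 3.49 CPM), Themis (67.3 against 2.34), a factor of T cell development, Cd6 (82.2 against 4.19), Nsg2, BE692007, Trbc2, Sh2d1a, Cd2 (290 against 31.0) and Dgka. The gamma-delta gate held 3.26 CPM of Dapl1, 16 of Lef1, 74.1 of Cd27 and 131 of Lck, so Dapl1 and Lef1 were also far lower there. Among genes with at least 50 CPM in the other cells of all 4 mice, low ratios were found for myeloid genes: the complement gene C1qb stood at 55.0 against 495 CPM and the MHC class II gene H2-Eb1 at 1316 against 7288.

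Macrophage transcripts were present in the gated cells. Lyz2, which encodes lysozyme and is among the most abundant transcripts of myeloid cells, had a UMI in 423 of the 430 gated cells (98.4%) with a median of 5 UMIs. It was found in 99.0% of gamma-delta gated, 98.7% of natural killer gated and 97.6% of B gated cells, with medians of 6, 7 and 145 UMIs, and in 99.8% of remaining cells with a median of 183. Csf1r, the receptor of the macrophage growth factor CSF1, was found in 80 gated cells (18.6%) and in 77.4% of remaining cells. By mouse, 17.4%, 26.2%, 21.4% and 13.6% of gated cells had a Csf1r UMI. A Csf1r UMI together with at least 20 Lyz2 UMIs was found in 41 gated cells (9.53%), which held 248 of the 295 Csf1r UMIs and had a median of 17621 UMIs in all, against 5954 in the other gated cells. Doublets within 1 mouse were not removed, and the myeloid lists and genes below are also given without gated cells that had a Csf1r UMI.

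The list of 16 macrophage genes summed to 2759 and 4668 CPM in gated cells of unimmunized mice and 5639 and 5012 CPM in those of immunized mice, most of it Lyz2 (2418, 4371, 5178 and 4378 CPM). It had 15, 12, 13 and 14 genes with a UMI, and Vsig4 was at 0 in all 4 mice. In remaining cells it summed to 11080, 14042, 22237 and 26611 CPM. Its sum was higher in both immunized mice in either population, and its part in the results below was not tested beyond leaving cells out. The erythroid list was at 0 in all 4 mice.

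Transcripts that mark the sort itself were scarce. Tomato, which the reference lists as a feature of its own, had a UMI in 7 gated cells (1.63%) and in 5.01% of all other cells. Siglec1 (chr2:131069220-131086765, minus strand) was found in 17 gated cells (3.95%), in 4.17% of gamma-delta gated cells and in 15% of all other cells, and its level in gated cells was 5.46, 0, 12.9 and 3.71 CPM in the 4 mice. Itgam, the gene of CD11b, was found in 9.07% of gated cells and in 54.1% of remaining cells. Hy10, a feature for a transgenic antigen receptor, had no UMI in any gated cell. Among all other kept cells it had a UMI in 12, of which 10 were of immunized mouse 1. Immunized mouse 2 and unimmunized mouse 1 had 1 such cell each.

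CD169 protein was read by the antibody tag, as a centred log ratio (CLR) over the 6 antibodies. The mean CLR of gated T cells was 1.04 and 0.614 in unimmunized mice and 0.208 and -0.156 in immunized mice, from median counts of 47, 20.5, 7 and 2 UMIs per cell. All other cells had mean CLRs of 0.879, 0.519, -0.218 and -0.661. Gated T cells lay above all other cells of the same mouse in 4 of 4 mice on the CLR scale, by 0.298 ± 0.198 (SD, n = 4 mice, p = 0.125 by an exact sign-flip test, whose p cannot be lower with 4 mice), but by -0.196 on the log2(UMI + 1) scale, where 2 of 4 mice were higher, so the direction depends on the scale. Without gated cells that carry other gamma or delta UMIs the CLR difference was 0.113. Against the gamma-delta gate the gated T cells lay lower by a CLR of -0.862 ± 0.262 in 4 of 4 mice, and by -1.95 on the log2 scale (p = 0.125 for the CLR, n = 4 mice, exact sign-flip test). In the same comparison CD68 tags were lower too, by -0.201 and -0.998, and Ly-6C tags were higher, by 0.583 and 0.133, each in 4 of 4 mice. Gated T cells carried fewer antibody UMIs in all, with medians of 116, 83, 77 and 78.5 in the 4 mice. In the gamma-delta gate these were 130.5, 134, 122 and 110.

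Within the gated T cells, CD169 tags were higher on cells with neither co-receptor than on Cd8-only cells. Their mean CLR was 1.36, 1.23, 0.407 and 0.306 in the 4 mice, against 0.211, -0.0444, -0.432 and -0.549 on Cd8-only cells. The difference was 1.03 ± 0.216 (SD) in 4 of 4 mice and 2.04 on the log2 scale (p = 0.125, n = 4 mice, exact sign-flip test). It was not particular to CD169. CD68 tags were also higher on neither than on Cd8-only cells in 4 of 4 mice, by a CLR of 0.444 and by 1.20 on the log2 scale. CD11c tags were higher in 2 of 4 mice by the CLR (0.0909) and in 4 of 4 on the log2 scale (0.688). F4/80 tags went the other way, by -0.411 and -0.0365, and the sign for Ly-6G depended on the scale. Cd4-only cells, at 0.745, 0.290, 0.605 and 0.347, lay below neither cells in both unimmunized mice and above them in both immunized mice by the CLR (neither minus Cd4-only 0.328 ± 0.537, SD, n = 4 mice). On the log2 scale this difference was 1.57, 2.22, -0.467 and 0.250 in the 4 mice, so its sign in immunized mouse 2 depends on the scale. The mean of immunized minus unimmunized mice over all gated T cells was -0.804 (p = 0.333, exact permutation test), and all other cells had the same order of mice.

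**Figure D4:**
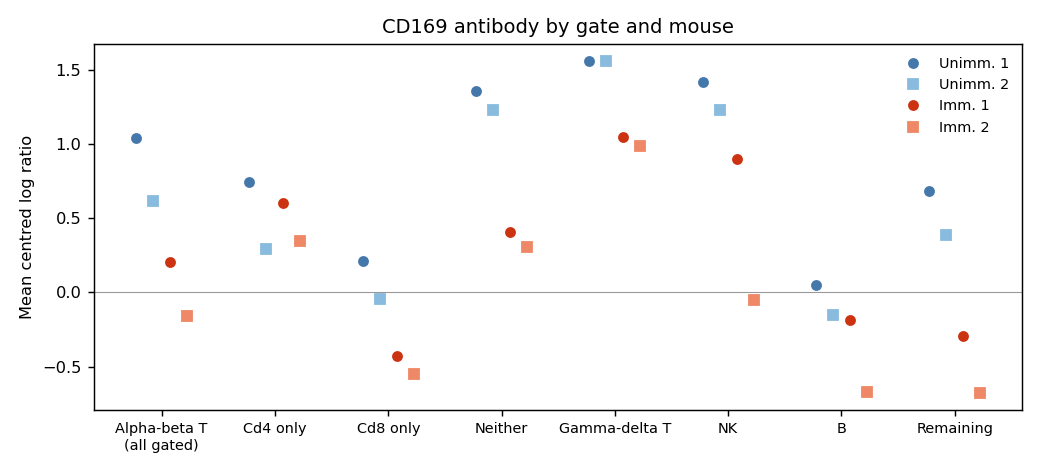
Mean centred log ratio of the CD169 antibody tag by gate, with 1 point per mouse; Cd4 only, Cd8 only and Neither are the categories of gated T cells. Neither cells lie above Cd8-only cells in all 4 mice, and the gamma-delta gate lies highest of all in each of the 4 mice, at 1.56, 1.56, 1.05 and 0.986.

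Ly-6C, a protein of memory and interferon-exposed T cells as well as monocytes, was lower on neither than on Cd8-only cells in 4 of 4 mice, by a CLR of -0.877 and by -0.709 on the log2 scale. CD11c tags were lower on gated T cells than on all other cells in 4 of 4 mice on both scales, by -0.443 and -1.26. F4/80 tags were lower in 3 of 4 mice by the CLR, by -0.218, and in 4 of 4 by the log2 scale, by -0.940. For CD68 and Ly-6G the sign of gated T cells minus all other cells depended on the scale, at 0.164 against -0.389 and 0.298 against -0.196.

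The effect of immunization on gene expression was tested on UMIs summed per mouse. In such sums, fewer cells of a type and less RNA per cell cannot be told apart. With all 20 libraries, which are the 5 populations of the 4 mice, in 1 fit, 1 of 9838 genes passed an adjusted p of 0.05 between immunized and unimmunized gated T cells (edgeR's quasi-likelihood test, Benjamini-Hochberg), a background of 0.0102%, while 770 had an unadjusted p under 0.05 and DESeq2 called 20. With the 4 gated T cell libraries alone, 208 of 7055 genes passed (2.95%), of which 112 rose (1.59%) and 96 fell (1.36%). Of the gate genes 4 were tested in that fit, and 1 of them is counted among the rises, as a description only. The first fit estimates the spread between mice over 5 populations and the second over the 4 gated libraries only, and 1 gene was called by both. Both are named below as the 20-library and the 4-library fit, with Benjamini-Hochberg adjusted p-values from edgeR.

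Tnfrsf4 (chr4:156013843-156016612, plus strand), the gene of OX40, passed in both fits. Its level was 19.1 and 7.25 CPM in unimmunized mice and 159 and 139 CPM in immunized mice, without overlap, as was the case in the same direction for 15.1% of the 9838 genes. The rise was 3.32 ± 0.44 (log2, SE) with an adjusted p of 0.0120 in the 20-library fit of edgeR and 3.24 ± 0.27 with 2.24e-05 in the 4-library fit. A Tnfrsf4 UMI was found in 12 of 219, 2 of 42, 23 of 103 and 13 of 66 gated cells, or 1.37%, 0%, 9.80% and 7.58% after thinning. A single cell held 56 of the 136 UMIs (41.2%) of immunized mouse 1, and 1 cell 32.0% of those of immunized mouse 2. In Cd4-only cells, which were deeper in immunized mice, it was found in 5 of 28, 2 of 7, 16 of 33 and 6 of 11 cells. The rise kept its direction and lost the threshold in the 20-library fit without unimmunized mouse 1 (adjusted p = 0.941) and without unimmunized mouse 2 (adjusted p = 0.823), and kept it without immunized mouse 1 (0.000246) and without immunized mouse 2 (0.000391), all from edgeR. It also missed the threshold with the stricter gate (2.98, adjusted p = 0.0518), in captures 1 and 2 alone (3.67 and 3.03, adjusted p = 0.0707 and 0.388), without cells that carry other gamma or delta UMIs (2.97, adjusted p = 0.0529) and within Cd4-only cells (2.06, adjusted p = 0.278).

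Genes of the IL-17 type programme were lower in immunized mice. Of the 10 genes listed, 9 entered the 20-library fit, with none above 0 and a median of -1.03 on the log2 scale, against 0.00 over all genes, and none passed. In the 4-library fit 7 of 7 tested fell, against 1.36% of all genes. Ccr6, a chemokine receptor of IL-17 type cells, was at 111 and 102 CPM in unimmunized and 28.0 and 25.9 CPM in immunized mice, a fall in the 4-library fit of -1.90 ± 0.24 (adjusted p = 0.000544, edgeR), and Blk at 132 and 97.9 against 32.7 and 16.7 CPM. Il17a and Il17f, the cytokine genes themselves, had no UMI in any gated cell. Il17re, which is not on the list, stood at 85.3 and 79.8 against 16.4 and 11.1 CPM and fell by 2.46 in the 4-library fit.

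The IL-17 genes were also looked at within categories. Ccr6 had a UMI in 40.6% and 33.3% of gated cells of unimmunized and 16.5% and 10.6% of immunized mice. Within neither cells alone the shares were 49.7%, 55%, 41.2% and 38.9%. The median of the list in the 20-library fit was -0.32 within neither cells, with 2 of 9 genes above 0, -1.85 within Cd4-only cells and -2.40 within Cd8-only cells, with none above 0 in either, and no gene passed in any of the 3 categories. These medians hold genes of few UMIs, such as Blk with 8, 4, 0 and 0 UMIs in the Cd4-only cells of the 4 mice, and are no bound. Without cells that carry other gamma or delta UMIs the median was -0.92. In the same libraries 2 gamma genes outside the gate fell in the 4-library fit, Tcrg-C2 from 67.5 and 61.7 to 18.7 and 24.1 CPM (-1.57, adjusted p = 0.00615) and Tcrg-C4 from 43.0 and 29.0 to 9.35 and 7.41 CPM (-2.09, adjusted p = 0.0104). UMIs of such genes were also found in the natural killer gate. The part of any gamma-delta T cells inside the gate in this fall was not tested further.

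Innate-like genes were mostly lower as well. The 11 innate-like genes had a median of -1.24 in the 20-library fit, with 3 above 0 and none that passed, and in the 4-library fit 6 of 10 fell and none rose, against 1.36% and 1.59% of all genes. In the 20-library fit the list's median was -0.65 within neither cells, with 3 of 11 above 0. It was -1.15 within Cd4-only cells, with 4 above 0, and -1.61 within Cd8-only cells, with 2 above 0. Cxcr6 stood at 593 and 562 CPM in unimmunized and 172 and 171 CPM in immunized mice, a fall of -1.68 ± 0.16 in the 4-library fit (adjusted p = 5.62e-05, edgeR) and a value of -1.66 ± 0.68 in the 20-library fit (adjusted p = 0.555). Zbtb16 stood at 49.8 and 39.9 against 8.18 and 9.27 CPM (-2.35, adjusted p = 0.00297 in the 4-library fit). Id2, a factor that innate-like and effector cells need, stood at 928 and 678 against 328 and 221 CPM (-1.48, a fall in the 4-library fit). Of 18 memory and residency genes, 17 were tested there, of which 1 rose and 1 fell, the latter Itgae, the integrin CD103 (162 and 112 against 47.9 and 44.5 CPM).

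Naive genes mostly lay above 0, but not within Cd4-only cells. All 12 were tested, with 11 above 0 and a median of 0.39 in the 20-library fit, and none passed. Without gated cells that carry other gamma or delta UMIs the median was 0.18, with 9 above 0. The median was -0.70 within Cd4-only cells, with 1 of 12 above 0, 0.42 within Cd8-only cells, with 11 above 0, and 0.45 within neither cells, with 9 above 0. In the 4-library fit 1 gene rose and 1 fell, against 1.59% and 1.36% of all genes. The fall was in Il7r (chr15:9505788-9530176, minus strand), the receptor of the survival cytokine IL-7, from 1307 and 1186 to 477 and 373 CPM (-1.48 ± 0.16, adjusted p = 0.000163). Il7r is not particular to naive cells: a UMI was found in 87.4% of neither, 74.0% of Cd8-only and 64.6% of Cd4-only cells, and within neither cells its level was 1651, 1915, 934 and 931 CPM in the 4 mice. Lef1 stood at 83.9 CPM in unimmunized mouse 1 and 199, 178 and 182 CPM in unimmunized mouse 2 and the immunized mice, so unimmunized mouse 1 stood apart.

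Regulatory and interferon lists had medians above 0. Of 12 regulatory genes 9 were tested, with 7 above 0 and a median of 1.27 in the 20-library fit, where Tnfrsf4 passed. In the 4-library fit Tnfrsf4, Tnfrsf9, Izumo1r and Ctla4 rose and Il2ra fell, of 9 tested, against 1.59% and 1.36% of all genes. The list's median was 1.24 within Cd4-only cells and 1.10 within neither cells, with 8 of 10 above 0 in each, and -0.41 within Cd8-only cells, with 2 of 7 above 0. Foxp3 stood at 10.2, 18.1, 61.9 and 9.27 CPM, with overlap, and its difference of 1.64 (adjusted p = 0.693, 20-library fit of edgeR) turned to -0.24 without immunized mouse 1. Of 14 interferon genes, 13 were above 0 with a median of 0.59 in the 20-library fit and none passed. The median was 0.61 within Cd4-only cells, with 11 above 0, and 0.73 within neither cells, with 12 above 0. Within Cd8-only cells it was 0.20, with 8 above 0. In the 4-library fit 6 of 13 tested rose, against 1.59% of all genes, among them Isg15, Ly6a, Igtp, Iigp1 and Gbp2. Iigp1, a GTPase against intracellular pathogens, stood at 27.3 and 43.5 against 161 and 345 CPM (3.10 ± 0.36, adjusted p = 0.000323), and Ly6a, which encodes Sca-1, at 153 and 261 against 512 and 549 CPM (1.54, adjusted p = 0.00122).

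No gene of the effector lists passed in the 20-library fit, and 4 did in the 4-library fit, which called 2.95% of all genes tested. Of the type 1 genes, 13 of 14 were tested in the 20-library fit (median 0.36), and in the 4-library fit Cxcr3 and Ccl4 rose of 7 tested. Of the follicular helper genes, 10 of 12 were tested (median 1.01), and Sh2d1a, which encodes the adaptor SAP, rose in the 4-library fit of 8 tested. Of the type 2 genes Gata3 alone was tested, and it fell in the 4-library fit. Il21 had 6 UMIs, all in 1 cell of immunized mouse 1, and Il4 had 5, 1, 3 and 4 UMIs in the 4 mice. Cell division genes had a median of 1.5, with 10 of 10 tested above 0, and 0 of 6 tested passed in the 4-library fit. Their median was 2.47 within Cd4-only cells, with 12 of 12 above 0, 0.98 within Cd8-only cells, with 9 of 9 above 0, and 0.04 within neither cells, with 5 of 9 above 0. In immunized mouse 1 a single cell held 45.2% of the UMIs of Mki67, 45.9% of those of Top2a and 43.5% of those of Stmn1.

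No receptor or co-receptor gene passed in the 20-library fit. Of the 20 genes of the receptor complex, 14 were above 0 with a median of 0.37. Cd247, the CD3 zeta chain, rose in the 4-library fit, where 1.59% of all genes rose. The 6 genes of the CD4 and CD8 lineages had a median of 0.57, with 4 above 0. Cd8b1 stood at 92.1 and 178 against 192 and 323 CPM and rose in the 4-library fit (1.17, adjusted p = 0.0457). Trac, which the gate used, had a value of 0.85 in the 4-library fit, given as a description. Survival genes had a median of 0.31 over 8 genes with 0 called, and of 10 immediate early genes tested in the 4-library fit, which respond to handling of cells as well as to stimulation, Junb rose.

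Several of the largest changes rested on few cells. By the rule on the largest changes in the 4-library fit, the rises were Ccl4 (6.59 ± 1.54), Tnfrsf9 (3.96 ± 0.75), Saa3 (3.90 ± 0.43), Tnfrsf4 and Iigp1, and the falls Lingo4 (-5.05 ± 0.76), Miat (-4.28), Hlf (-4.18 ± 0.46), Abi3bp (-3.21) and Zp1 (-3.10). Ccl4 stood at 1.36, 14.5, 5.84 and 688 CPM, and 366 of the 371 UMIs of immunized mouse 2 (98.7%) were in 1 cell. Of the Tnfrsf9 UMIs of that mouse 45.2% were in 1 cell. Saa3, an acute-phase gene of myeloid cells, stood at 10.9 and 21.8 against 117 and 259 CPM, with 83 of the 140 UMIs of immunized mouse 2 (59.3%) in 1 cell, and its difference in the 20-library fit was 3.92, or 2.92 without gated cells that had a Csf1r UMI. For Iigp1 these values were 3.09 and 2.60. Cxcl10, a chemokine gene that interferon induces in myeloid cells, stood at 38.2 and 14.5 against 293 and 193 CPM, with 41.4% and 67.3% of the UMIs of the immunized mice in 1 cell each. Its difference was 3.06 in the 20-library fit and 0.65 without the same cells.

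Hlf, a transcription factor gene, and Lingo4 were close to 0 in immunized mice. Hlf stood at 60.7 and 50.8 CPM in unimmunized and 2.34 and 3.71 CPM in immunized mice, with an adjusted p of 0.0688 in the 20-library fit and 0.000184 in the 4-library fit of edgeR. It was found in 20.5% of neither, 12.7% of Cd4-only and 6.30% of Cd8-only cells. Lingo4 stood at 32.1 and 25.4 against 1.17 and 0 CPM, with an adjusted p of 0.0688 and 0.00172 in the same fits. Over all 9838 genes, CPM was higher without overlap in both immunized mice for 1481 and lower for 2476 (25.2%), so groups that do not overlap are common here.

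**Figure D5:**
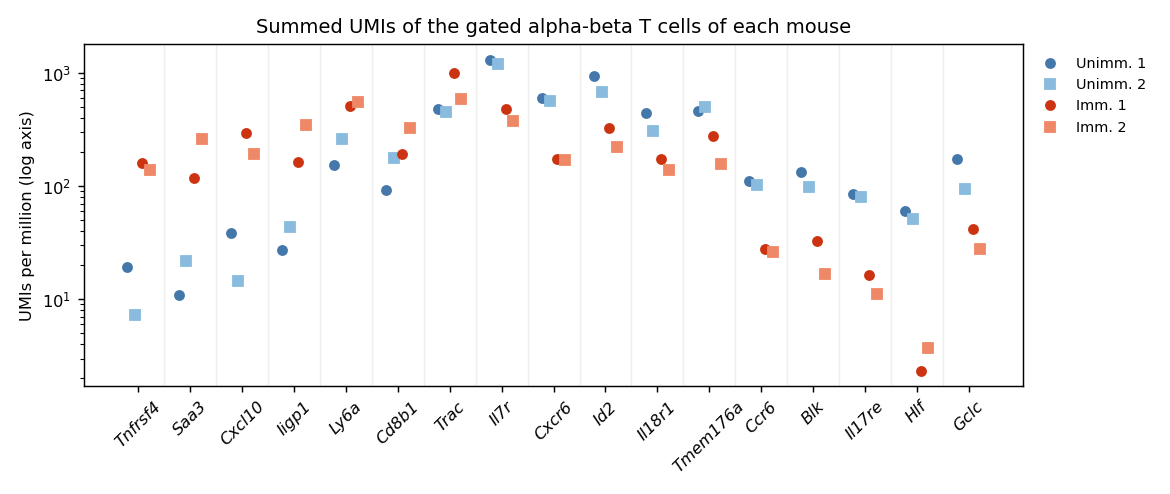
Level in CPM of 17 genes (log axis) summed over the gated T cells of each mouse, with 1 point per mouse. Points of unimmunized and immunized mice do not overlap for Tnfrsf4 (19.1 and 7.25 against 159 and 139), Cxcr6 (593 and 562 against 172 and 171) or Ccr6 (111 and 102 against 28.0 and 25.9).

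Myeloid lists were tested beside these. Of 14 tested macrophage genes, 9 were above 0 with a median of 0.66 in the 20-library fit. In the 4-library fit, where 1.59% of all genes rose, C1qa and C1qb rose of 11 tested. Without gated cells that had a Csf1r UMI the median turned to -0.45, with 5 of 14 above 0, and the values of C1qa and C1qb in the 20-library fit went from 2.08 and 1.24 to 1.02 and 0.03. Of 8 monocyte genes Plac8 and Chil3 rose in the 4-library fit, of 5 tested. The list's median in the 20-library fit was 0.23, or 0.01 without those cells. The 9 genes of dendritic cells and MHC class II had a median of 0.45 in the 20-library fit, which turned to -0.11 without those cells. In the 4-library fit 0 of 5 tested were called. The summed level of that list in gated cells was 5323, 6862, 8842 and 7864 CPM, led by Cd74. The natural killer list summed to 32.1, 21.8, 24.5 and 25.9 CPM (median -0.62) and the B cell list to 274, 272, 305 and 202 CPM, led by Ighm and with Pax5 at 0 (median -0.07). The natural killer list includes Ncr1, which the gate held at 0, so its sum and median are a description only. The part of these transcripts in the changes above was not tested, other than by the fits that left out gated cells with macrophage UMIs.

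The change with immunization was then compared with that in the remaining cells. In the interaction test 34 of 9838 genes passed (0.346%), all with a positive difference, the change in gated T cells minus that in remaining cells. Tnfrsf4 was among them, with a difference of 4.06 ± 0.57 (adjusted p = 0.00806, edgeR, 20-library fit), as its level in remaining cells was 9.46, 10.2, 6.73 and 3.84 CPM. The others included Bcl11b (4.31), a transcription factor gene of T cells, Cd6, Lat, Lck, Trbc2 and Cd8b1. Cd3d and Cd3e were also counted, but the gate chose cells on both, so they are a description only. Bcl11b stood at 283, 258, 224 and 226 CPM in gated T cells of the 4 mice, and at 47.7 and 27.2 CPM in remaining cells of unimmunized and 2.51 and 0.698 CPM in those of immunized mice. Once remaining cells with a UMI of a receptor or Cd3 gene were left out, 1 gene was called, and it was Tnfrsf4. With the mouse as a block, 138 genes were called, among them all 34. Without unimmunized mouse 1 or 2 none was called, and 271 and 117 were without immunized mouse 1 or 2.

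Against the gamma-delta gate no gene passed (0 of 9838, a background of 0%, edgeR), 352 had an unadjusted p under 0.05, and DESeq2 and the fit with the mouse as a block also called 0. In the gamma-delta gate itself 0 genes passed between immunized and unimmunized mice, with 580 at an unadjusted p under 0.05. Immunized mouse 2 had 18 cells in that gate, and the counts of 0 do not show that the changes were alike.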

How the data were processed

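Gene, hashtag and antibody counts were deposited by the authors as whole UMI counts, without normalization. The submitters' processing notes name Cell Ranger 4.0.0 (count and aggr in the methods) and mm10, and the methods name CITE-seq-count, with a version not given in the sources used here. The gene matrix had 32287 features, and the antibody matrix 6 antibodies. Hashtag and antibody barcodes carried no capture ending, so barcodes whose sequence both captures held were dropped. A mouse was assigned where 1 hashtag held at least 80% of hashtag UMIs and at least 10. Barcodes without such a hashtag, doublets across mice among them, were dropped, and no doublet caller was run.

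The members, gene lists and tests were chosen with earlier results of these data known. UMIs were summed per mouse and population (alpha-beta T, gamma-delta T, natural killer, B and remaining cells), and the 20 libraries were fitted with edgeR 4.0.16 in R 4.3.3 (glmQLFit, glmQLFTest, TMM, filterByExpr), with Benjamini-Hochberg adjustment at 0.05. Libraries of the same mouse were treated as independent, with the mouse as a block (a term of the model) and DESeq2 1.42.0 as alternatives. The labels give captures rather than mice, so groups rest on the hashtags that the labels assign to unimmunized and immunized mice, and libraries of 1 mouse are paired because they come from the same animal. Shares had exact binomial 95% intervals and exact permutation tests over mice. For antibodies, the centred log ratio was taken in each cell and averaged per mouse. Thinning used 1500 UMIs per cell. Named genes are those of the lists, plus the 5 largest rises and 5 largest falls that passed in the 4-library fit (mean log2 CPM 4 or more), as the 20-library fit called 1 gene, the 15 largest ratios to other cells and the V genes found in most cells. Il17re, Tcrg-C2, Tcrg-C4, Cxcl10, Gclc, C1qb, H2-Eb1 and the genes unlike remaining cells were named after their values were seen. Other work used Python 3.11.15, numpy 2.4.6, scipy 1.17.1, pandas 2.3.3 and matplotlib 3.10.9. Some genes of the lists are not reported here.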

Additional observations from a re-analysis of the deposited data

Results flagged for a closer look

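In 34 genes the change with immunization differed between the gated T cells and the remaining cells by the interaction test of edgeR, Cd3d and Cd3e of the gate among them. For Tnfrsf4 this difference was 4.06 on the log2 scale, and Tnfrsf4 was the single gene called once remaining cells with receptor or Cd3 UMIs were left out.

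Barcodes outside the comparisons also passed the gate. Among the 3449 barcodes without a single hashtag 119 did, and among the 1242 barcodes whose sequence occurred in both captures 81 did. They have no mouse, and their share in each group was not tested.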

How the results depend on the processing

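The share of gated T cells was lower in immunized mice under every alternative run. Its difference of -5.81 percentage points became -3.51 with a stricter gate, -6.76 and -4.93 in captures 1 and 2, and -4.85 after thinning. It became -4.48 without gated cells that had a Csf1r UMI, -3.74 without those with other gamma or delta UMIs, and -0.186 without those with any Csf1r or Lyz2 UMI. The last leaves 7 gated cells, so the other results were not run on it. The settings on Csf1r alone, on Csf1r with at least 20 Lyz2 UMIs, other gamma or delta genes, single co-receptor categories and remaining cells were chosen after seeing the data.

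Genes changed in gated T cells numbered 1, and 6 with a stricter hashtag rule, 2 without cells that had Csf1r and at least 20 Lyz2 UMIs, 9 when remaining cells with receptor or Cd3 UMIs were left out, 20 by DESeq2, 232 with no filter and 208 in the 4 libraries alone. They numbered 0 with the stricter gate, in each capture, without cells of other gamma or delta UMIs and in each co-receptor category, and 0 to 126 with 1 mouse left out, where the lone mouse of a group is assumed to vary like the others. The causes were not tested.

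The 34 genes with a change unlike that of remaining cells became 61, 22, 56, 15, 62, 76 and 269 under the stricter hashtag rule, capture 1, cells with Csf1r left out, other gamma or delta cells left out, cells with Csf1r and Lyz2 left out, DESeq2 and no filter. They became 0, 0 and 9 in Cd4-only, Cd8-only and neither cells, 1 when remaining cells with receptor UMIs were left out, and 0 to 271 with 1 mouse left out. With the mouse as a replicate block, which pairs libraries of the same animal, 138 were called, and 0 against the gamma-delta gate. That last comparison gave 0 to 2 with 1 mouse left out and 32 with no filter.

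The CD169 difference of 0.298 turned to -0.196 on the log2(UMI + 1) scale, and Foxp3 ran from -0.24 to 2.41 with 1 mouse left out, the lowest without immunized mouse 1. Tnfrsf4 missed the threshold in 9 of 19 alternatives and lay between 2.06 (Cd4-only cells) and 4.41 (without unimmunized mouse 1), apart from the Cd8-only fit, where no unimmunized cell had a UMI and the fitted value is no estimate.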
